A study of Mus musculus with 6 samples.

Results

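The genes that encode the subunits of the oxidative phosphorylation system were followed in R1 mouse embryonic stem cells between 24 h and 48 h of culture with FGF2. Members were all rows of the gene count table whose symbol begins with Nduf (subunit letters a, b, c, s or v), Uqcr, Cox4 to Cox8 or Atp5, together with Sdha to Sdhd, Cyc1 and the mitochondrially encoded mt-Nd, mt-Cytb, mt-Co and mt-Atp genes, without names that hold -ps. The rule gave 102 of 51912 gene identifiers, of which 89 lie in the nuclear genome and 13 in the mitochondrial genome. R1, an established embryonic stem cell line, had been grown in 2iLIF medium, which holds cells in the naive state with inhibitors of MEK and GSK3 and the cytokine LIF, and was then moved into serum-free N2B27 medium with FGF2 at 100 ng/ml. The groups were cells after 24 h and cells after 48 h of that treatment, with 3 replicates each, and the labels name no genotype other than the line. All libraries had left 2iLIF and had received FGF2, so no comparison below separates the growth factor from the change of medium or from time in culture. The labels do not say that the replicates were separate cultures, so p-values set differences against the spread between these samples, which may be technical. That spread was small, with a common coefficient of variation between replicates, beyond counting noise, of 2.32%.

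The respiratory chain passes electrons from NADH through complex I, or from succinate through complex II, by way of ubiquinone to complex III, cytochrome c and complex IV, where oxygen is reduced. Complexes I, III and IV pump protons across the inner mitochondrial membrane, and ATP synthase (complex V) uses the gradient to make ATP. Complexes I, III, IV and V are assembled from products of both genomes, whereas complex II is encoded in the nucleus alone. In pluripotent cells, respiration is known to differ between the naive state and the later, primed state.

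The libraries held between 19574969 and 23133148 estimated counts. Of 14889 genes tested, 9345 changed between the time points at an adjusted p under 0.05, which is 62.8%, with 31.9% lower and 30.9% higher at 48 h. The median log2 fold change over all genes tested was -0.01. All 8 naive pluripotency markers fell and all 6 formative and primed markers rose, as did 4 of 6 general pluripotency genes, while 2 fell. Markers of other cell types moved as well. Summed levels of the primitive endoderm markers lay between 49.1 and 57.3 CPM (counts relative to the scaled library total) at 24 h and between 16.2 and 16.5 CPM at 48 h. The same sums were 25.4 to 25.9 and 8.88 to 9.28 CPM for the trophectoderm markers, 127 to 137 and 145 to 157 CPM for the neural markers, and 15.7 to 18.5 and 12.8 to 14.8 CPM for the primitive streak markers. Most of the endoderm sum came from Lama1 (mean 43.1 CPM at 24 h and 10.8 at 48 h) and most of the trophectoderm sum from Krt8 (20.6 and 5.26 CPM). Of the 5 neural markers, Sox1, Pax6 and Zic1 rose, and Tubb3 and Nes fell. Feeder fibroblast markers summed to 2.54 to 3.35 CPM at 24 h and 1.47 to 2.39 CPM at 48 h, with S100a4 at 0 in every library. The part of these cell types in the results on respiration genes was not tested.

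The nuclear subunit genes were mostly lower at 48 h, by small amounts. Of the 82 nuclear members with enough counts to be tested, 60 fell, 3 rose and 19 did not pass the test, against 31.9% lower and 30.9% higher among all genes. Their median log2 fold change (48 h over 24 h) was -0.17, and 74 of the 82 values were negative. The values ran from -1.86 for Cox7a1 to 0.83 for Cox7b2. Among the 63 that changed, 61 changed by less than 2-fold and 58 by less than 0.5 on the log2 scale. Values at 24 h and 48 h were fully separate for 63 members, or 76.8%, against 66.9% of all genes. The 60 lower members include Ndufb4c, a processed pseudogene whose counts are divided with Ndufb4. The 59 tested nuclear members with whole-number counts in all libraries, which leave it out, gave 45 lower, 3 higher and a median of -0.19. Lower amounts of RNA per cell cannot be told apart from fewer cells of a kind in these bulk samples. Exons of 29 members overlap a gene on the other strand (Ndufs1, Uqcrb, Uqcrc2, Cox4i1, Cox5a, Ndufa4l2, Atp5o, mt-Co1, mt-Nd5 and mt-Nd6 among those named below), and the use of strand in counting is not given in the sources used here. The other 7 nuclear members, Cox4i2, Cox6a2, Cox6c2, Cox8b, Cox8c, Ndufa11b and Ndufs6b, had too few counts to be tested.

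**Figure D1:**
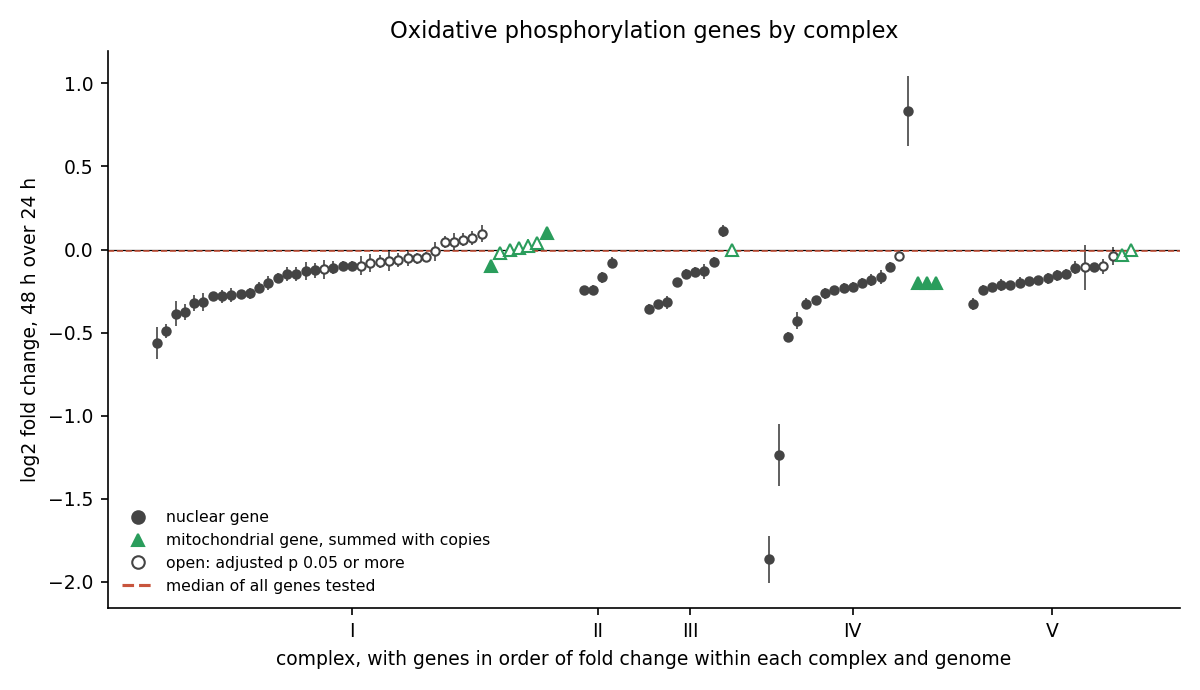
Log2 fold change (48 h over 24 h) of each tested member, with its standard error, ordered within each complex. Circles are nuclear genes as deposited and triangles are mitochondrial genes summed with their near-identical nuclear copies, open symbols did not pass the test, and the dashed line is the median of all genes, -0.01. The triangles of complex IV lie together at -0.20 while most other triangles lie near 0.

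Summed over members, the nuclear genes gave 9232, 9293 and 9323 CPM in the 24 h libraries and 8220.3, 8241 and 8207 CPM in the 48 h libraries. Every 48 h sum was below every 24 h sum, and the mean was 11.4% lower. Nuclear complex IV showed the widest gap, with a mean 16.1% lower at 48 h, followed by complex II with 13.1%, complex III with 12.2%, complex V with 10.1% and complex I with 9.62%. The order of the last pair depended on the setting, with 9.57% for complex V and 9.67% for complex I when members were summed with their copies. The groups did not overlap for any of these 5 sums, which are descriptions without a test.

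**Figure D2:**
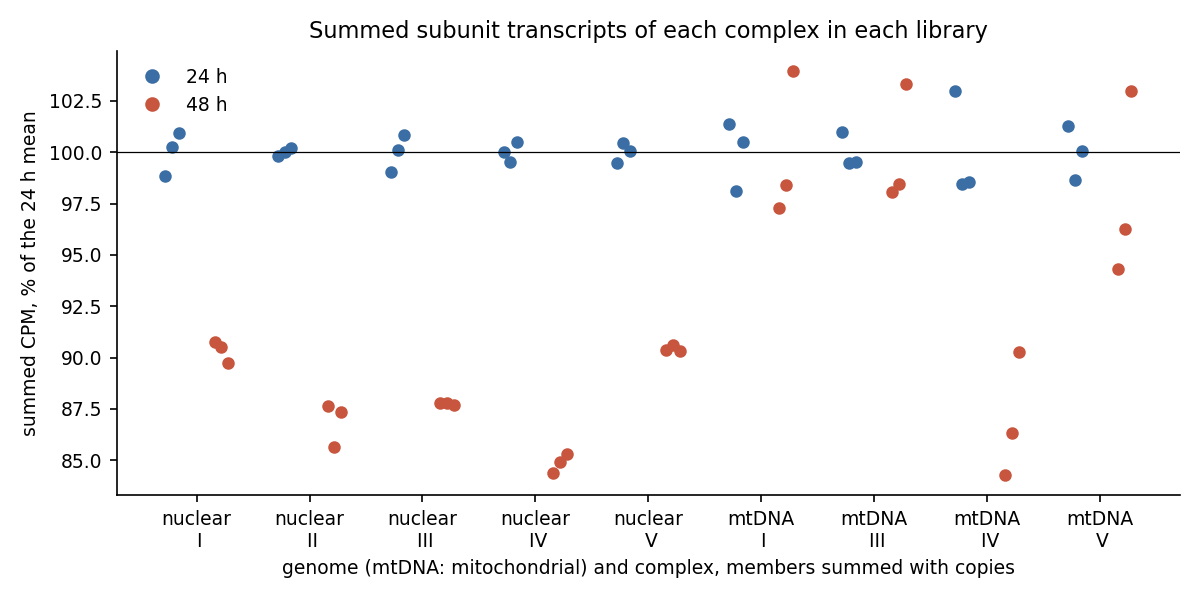
Summed CPM of the members of each complex in each library, as a percentage of the 24 h mean, for nuclear genes and for mitochondrial genes, each summed with near-identical copies. Blue dots are 24 h and red dots 48 h libraries. The nuclear sums and mitochondrial complex IV do not overlap between the times, while the mitochondrial sums of complexes I, III and V do.

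Complex I, the NADH dehydrogenase, had the smallest median shift among the nuclear sets. Of its 36 tested nuclear members, 21 fell, none rose and 15 did not pass the test, with a median log2 fold change of -0.12. The 21 include the processed pseudogene Ndufb4c, described below. Counts here and for the other complexes below stand beside 31.9% lower and 30.9% higher among all genes. Among the 7 nuclear-encoded core subunits, which bind NADH, the redox centres and ubiquinone, 3 fell and 4 did not pass. Among those that fell, Ndufv2 (log2 fold change -0.28) and Ndufv1 (-0.10) were picked out after their values were seen. Ndufs1, which holds iron-sulphur clusters near the NADH site and had the most counts of the nuclear complex I genes, gave 159, 165 and 168 CPM at 24 h and 161, 159 and 158 CPM at 48 h. These values overlapped, and the log2 fold change of -0.04 ± 0.03 (SE) had an adjusted p of 0.151. Of the 28 protein-coding accessory subunit genes, 17 fell and 11 did not pass.

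As deposited, the largest falls among the protein-coding genes of complex I were those of Ndufb4, an accessory subunit of the membrane arm, and Ndufs5. Ndufb4 (chr16:37647170-37654453, minus strand) gave 14.4, 14.8 and 16.9 CPM at 24 h and 11.8, 9.05 and 10.4 CPM at 48 h, with all 48 h values below all 24 h values. Its log2 fold change was -0.56 ± 0.10 (SE, adjusted p = 9.65e-05). The row Ndufb4c, a processed pseudogene on chromosome 15 that is identical to Ndufb4 over 390 bases, took 73.5% to 78.5% of the counts of the pair, and fell by 0.49 on its own. Their sum still fell, by 0.51 on the log2 scale (adjusted p = 7.44e-09). Ndufs5 gave 16.5, 17.4 and 16.8 CPM at 24 h and 13.1, 13.7 and 12.0 CPM at 48 h, without overlap. It fell by 0.39 (SE 0.07, adjusted p = 0.000276), and by 0.30 when summed with its pseudogene BC002163. That pseudogene took 54.8% to 60.9% of the counts of the pair. The sum fell less than some complex I genes without a counted copy, so the rank of Ndufs5 holds only as deposited.

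Complex II, succinate dehydrogenase, is both part of the chain and an enzyme of the citric acid cycle, and all 4 of its subunit genes fell. Sdha, the flavoprotein that oxidises succinate, gave 229.6, 229 and 232 CPM at 24 h and 197, 189.8 and 195 CPM at 48 h. The groups were well apart, and the log2 fold change was -0.25 ± 0.02 (SE, adjusted p = 4.58e-08). Sdhc, a membrane anchor, fell by 0.24 and Sdhb, the iron-sulphur subunit, by 0.17. Sdhd, the other anchor, gave 88.8, 84.3 and 86.5 CPM at 24 h and 82.8, 79.5 and 83.5 CPM at 48 h, which did not overlap but lay close together. Its fall of 0.08 had an adjusted p of 0.0443, and values between 0.0543 and 0.199 under RLE scaling, TMM without the members, DESeq2 and when any of 4 libraries (the 24 h replicates 1 and 3 or the 48 h replicates 1 and 2) was left out.

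Complex III, the cytochrome bc1 complex, had 9 nuclear members, of which 8 fell and 1 rose, the median being -0.15 on the log2 scale. Uqcrb, a small subunit named for ubiquinone binding, gave 103, 98.6 and 96.8 CPM at 24 h and 76.0, 78.8 and 77.8 CPM at 48 h, a clear gap. Its log2 fold change was -0.36 ± 0.03 (SE, adjusted p = 5.14e-08). The core protein Uqcrc2 fell by 0.33 and the small subunit Uqcr10 by 0.32. The redox subunits fell less, Cyc1, which carries haem c, by 0.13 and Uqcrfs1, the Rieske iron-sulphur protein, by 0.07. Uqcrq, another small subunit, was the only complex III gene that rose. It gave 57.8, 59.1 and 61.9 CPM at 24 h and 64.8, 64.3 and 64.5 CPM at 48 h, so that each 48 h value was above each 24 h value. Its log2 fold change of 0.11 ± 0.04 (SE) had an adjusted p of 0.0115. When libraries were scaled by size alone, the change was 0.05 with an adjusted p of 0.216. Without the 24 h replicate 1 the adjusted p was 0.0613.

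Complex IV, cytochrome c oxidase, had the largest changes in either direction. Of its 16 tested nuclear members, 14 fell, 1 rose and 1 did not pass, with a median of -0.24. Several subunits of this complex have isoform genes that are known for restricted tissues, such as heart and skeletal muscle, lung or testis. Of 8 such isoform genes, Cox4i2, Cox6a2, Cox6b2, Cox7a1, Cox7b2, Cox8b, Cox8c and Ndufa4l2, 4 were tested, with 3 lower and 1 higher. Of the 12 other protein-coding nuclear subunit genes, 11 fell, and Cox7c did not pass (log2 fold change -0.04, adjusted p = 0.27). Near-identical copies took 31.9% to 38.1% of the Cox7c counts, and summed with them it gave 0.02 (adjusted p = 0.402).

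Cox7a1 (chr7:30184144-30186078, plus strand), the heart and skeletal muscle isoform of subunit 7a, showed the largest change of all members. It gave 9.66, 7.71 and 10.6 CPM at 24 h and 2.85, 2.56 and 2.30 CPM at 48 h. The lowest 24 h value was well above the highest 48 h value, and the means differed 3.63-fold (log2 fold change -1.86 ± 0.14 SE, adjusted p = 5.85e-09). The broadly expressed isoform Cox7a2 fell by 0.16 (adjusted p = 0.00293). Per kilobase of transcript, mean levels were 21.3 CPM for Cox7a1 and 90.5 CPM for Cox7a2 at 24 h, and 5.86 and 80.7 CPM at 48 h. The third gene of the family, Cox7a2l, whose product ties complexes III and IV into supercomplexes, fell by 0.26.

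Ndufa4l2, a hypoxia-induced relative of the complex IV subunit gene Ndufa4, was low throughout. It gave 3.70, 2.73 and 3.48 CPM at 24 h and 1.52, 1.42 and 1.26 CPM at 48 h, without overlap, and fell by 1.24 on the log2 scale (SE 0.19, adjusted p = 2.23e-05). Ndufa4 itself fell by 0.20. Cox6b2, known as the testis isoform of subunit 6b, gave 34.0, 38.1 and 36.7 CPM at 24 h and 28.3, 26.6 and 26.1 CPM at 48 h, again without overlap. It fell by 0.43 (SE 0.05, adjusted p = 2.06e-06), beside a fall of 0.33 in Cox6b1, the general isoform, which was the more abundant per kilobase (242 against 78.1 CPM at 24 h).

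Cox7b2 was the only tested complex IV gene that rose. It gave 1.35, 1.42 and 1.23 CPM at 24 h and 2.16, 2.01 and 2.93 CPM at 48 h, so all 48 h libraries were above all 24 h libraries, with replicate 3 the highest. The log2 fold change was 0.83 ± 0.21 (SE, adjusted p = 0.00268), and the main isoform Cox7b fell by 0.23. Among the isoform genes without a test, Cox4i2, the lung isoform of subunit 4 that is known to respond to oxygen, had 4, 9 and 9 counts at 24 h and 1, 2 and 1 counts at 48 h. Cox8b had 0 counts in every library, and Cox6a2 had at most 2.

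Cox5a, a subunit on the matrix side of the oxidase, had the smallest p-value of all members. It gave 183, 177 and 180.3 CPM at 24 h and 127, 125 and 124 CPM at 48 h. The spread between replicates was small beside the gap between the groups, with a log2 fold change of -0.52 ± 0.02 (SE, adjusted p = 1.14e-11). Cox4i1, the main isoform of subunit 4 and the nuclear complex IV gene with the most counts, gave 306, 305 and 303 CPM at 24 h and 257, 255 and 262 CPM at 48 h. It fell by 0.24 (SE 0.02, adjusted p = 1.54e-08), and Cox6a1 and Cox8a fell by 0.30 and 0.22.

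**Figure D3:**
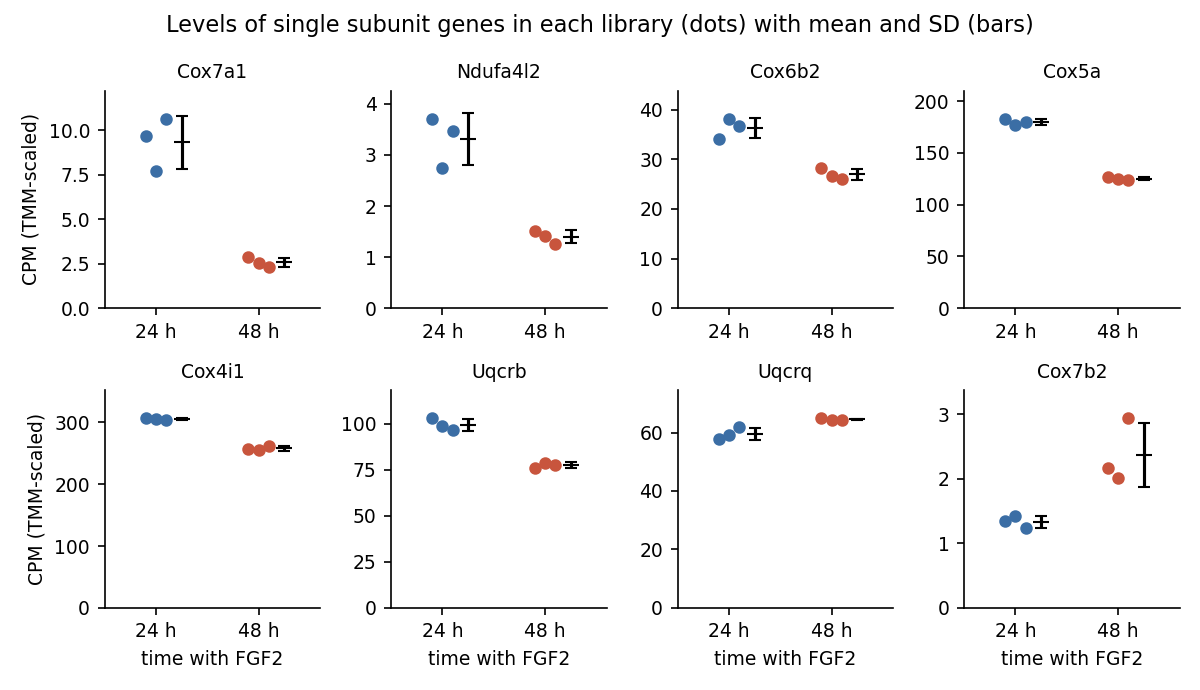
CPM of 8 nuclear subunit genes in each library (dots) with the mean and SD of each group (bars), on axes that start at 0. Cox7a1 and Ndufa4l2 drop from low levels, Cox5a drops with little spread between replicates, and Uqcrq and Cox7b2 are higher at 48 h.

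Of the 16 nuclear genes of ATP synthase, 13 fell, none rose and 3 did not pass, with a median of -0.18. Of the 5 genes of the catalytic F1 head, 4 fell. Atp5b, the catalytic beta subunit and the nuclear member with the most counts, gave 1649.7, 1659 and 1657 CPM at 24 h and 1545, 1539 and 1541 CPM at 48 h. The shift was small beside the other members but large beside its replicate spread (log2 fold change -0.10 ± 0.01 SE, adjusted p = 3.46e-06). Atp5mpl, a small membrane protein attached to the enzyme, fell by 0.33 and Atp5o, which joins the peripheral stalk to the head, by 0.23.

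The proton-carrying c ring is encoded by 3 genes whose mature proteins are the same. Atp5g1 fell by 0.24 and Atp5g3 by 0.20. Atp5g2 was not called as deposited (log2 fold change -0.11, adjusted p = 0.517), with 82.5 to 113 counts a library. Its transcript is identical over 645 bases to Gm10175, annotated as a transcribed processed pseudogene on chromosome 7. That row held 2400.2 to 3001 counts, or 95.8% to 97.2% of the pair. Whether those counts came from Atp5g2 or from the pseudogene's own transcript was not tested. Summed, the pair gave 125, 133 and 125 CPM at 24 h and 137, 134 and 140.2 CPM at 48 h, which did not overlap. The sum was higher at 48 h by 0.10 ± 0.03 (SE, adjusted p = 0.00609), but by 0.04 when libraries were scaled by size alone (adjusted p = 0.221).

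The name rule also took in Atp5s, whose product is not counted among the subunits of the enzyme, and which was kept apart. It rose by 0.33 (SE 0.12, adjusted p = 0.0292) from a mean of 3.90 CPM.

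The upstream sequences of the nuclear genes were searched for motifs of factors known to bind promoters of respiration genes. The searched letters were GCGCA followed by any base and GCGC for NRF1, CCGGAAG for ETS factors such as GABP, and AAGATGGC for YY1, on both strands, in windows from 250 bases before to 50 after the start in RefSeq (GRCm38.p6). Of the 68 nuclear members with an entry, 16 (23.5%) held the NRF1 letters, 15 (22.1%) the ETS letters and 9 (13.2%) the YY1 letters. Among all 27025 promoters the shares were 4.78%, 9.12% and 2.88%. Among the 48 matched members that fell, 13 held the NRF1, 10 the ETS and 6 the YY1 letters, and among the 20 others 3, 5 and 3 did. The 250 bases before the start are shown for Cox7a1, the member with the largest fall, and, picked after the search for their motifs, for Sdha and Cox6a1. Capitals mark NRF1 letters and, near the end of Cox6a1, the ETS letters on the opposite strand.
Cox7a1 (chr7:30183921-30184170, plus strand): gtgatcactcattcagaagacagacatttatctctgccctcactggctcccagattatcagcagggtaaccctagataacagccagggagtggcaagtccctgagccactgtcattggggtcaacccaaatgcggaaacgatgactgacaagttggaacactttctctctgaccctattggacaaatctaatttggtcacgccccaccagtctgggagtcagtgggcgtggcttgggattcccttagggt
Sdha (chr13:74350241-74350490, minus strand): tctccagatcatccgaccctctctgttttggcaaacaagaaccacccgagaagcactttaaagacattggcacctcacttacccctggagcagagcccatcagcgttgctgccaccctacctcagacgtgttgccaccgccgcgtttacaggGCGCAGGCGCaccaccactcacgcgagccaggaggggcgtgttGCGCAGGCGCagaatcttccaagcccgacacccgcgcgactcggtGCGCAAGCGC
Cox6a1 (chr5:115348959-115349208, minus strand): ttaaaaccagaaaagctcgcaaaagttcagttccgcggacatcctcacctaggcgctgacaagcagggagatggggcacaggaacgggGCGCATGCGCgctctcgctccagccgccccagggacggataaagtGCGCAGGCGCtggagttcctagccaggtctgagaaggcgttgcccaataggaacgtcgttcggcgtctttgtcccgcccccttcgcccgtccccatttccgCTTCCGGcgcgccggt
Sdha holds the NRF1 letters 3 times and Cox6a1 holds them 2 times, while Cox7a1 holds none of the 3 motifs in its window. A match is a description of the letters only, and binding was not measured.

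The 13 protein-coding genes of the mitochondrial genome are transcribed as long precursors and cut into messages for 7 subunits of complex I, 1 of complex III, 3 of complex IV and 2 of complex V. Their rows in the table took 2.94% to 3.05% of each library's counts at 24 h and 2.61% to 2.78% at 48 h, without overlap. As deposited, 5 of the 13 fell (38.5%, beside 31.9% of all genes), 1 rose and 7 did not pass. When libraries were scaled by size alone, 9 of the 13 were lower and 0 higher, where 38.2% of all genes were lower. Counts were fractional for 6 of them, mt-Nd3, mt-Nd4l, mt-Co1, mt-Co2, mt-Co3 and mt-Atp6. Each of the 6 has a copy, which for mt-Co1 covers 483 of 1545 bases, of at least 99.7% identity in a block of chromosome 1 (24612407 to 24616197, minus strand, GRCm38), where a stretch of mitochondrial DNA lies in the nuclear genome. RSEM divides reads that match several transcripts between them, and these copies have rows of their own.

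The mt-Co2 message, which encodes the subunit that takes electrons from cytochrome c, shows how close the copies are. Gm28661, on chromosome 1, was identical to it over 681 of 681 aligned bases, whereas another copy on chromosome 2, Gm13341, differed at 16 of 672. The same 60 bases of all 3 are given below, with capitals where mt-Co2 and the chromosome 2 copy differ (GENCODE M21 transcripts, GRCm38).
mt-Co2 (chrM:7465-7524, plus strand): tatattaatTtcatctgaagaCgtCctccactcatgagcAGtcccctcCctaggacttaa
Gm28661 (chr1:24615054-24615113, minus strand): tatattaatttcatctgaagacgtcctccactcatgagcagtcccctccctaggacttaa
Gm13341 (chr2:22587463-22587522, minus strand): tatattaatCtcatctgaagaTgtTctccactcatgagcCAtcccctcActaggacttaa
The mt-Co2 row held 5107, 5223 and 5072 counts at 24 h and 2542, 3423 and 3661 at 48 h. The Gm28661 row held 78527, 76749 and 85343 counts at 24 h and 69493, 72448 and 78024 at 48 h, and Gm13341 held at most 46.9. The identical copy thus carried most of the counts of the sequence, and the copy that can be told apart carried few. As deposited, mt-Co2 fell by 0.72 on the log2 scale. Summed with its copies it fell by 0.20.

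For mt-Nd3 the copy Gm28438 differed at 1 of 345 aligned bases, the third of the message, in capitals here.
mt-Nd3 (chrM:9459-9518, plus strand): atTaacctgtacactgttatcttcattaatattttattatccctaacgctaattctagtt
Gm28438 (chr1:24613060-24613119, minus strand): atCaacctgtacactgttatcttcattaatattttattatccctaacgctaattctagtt
This copy took between 31.3% and 54.9% of the counts of the pair, a share that varied between replicates. Over the 6 genes and 6 libraries, the sum of a gene and its copies was a whole number (within 0.05) in 36 of 36 cases. For mt-Co1 and mt-Atp6 the sums had been rounded to 6 digits before the check, so their cases could not come out otherwise and show nothing. Of the summed counts of the 13 genes, copies took a mean of 31.9% ± 0.11 after 24 h and 31.6% ± 0.045 after 48 h (SD, n = 3). The results below therefore use the sums, an alternative chosen after seeing the data, with the whole table fitted again.

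**Figure D4:**
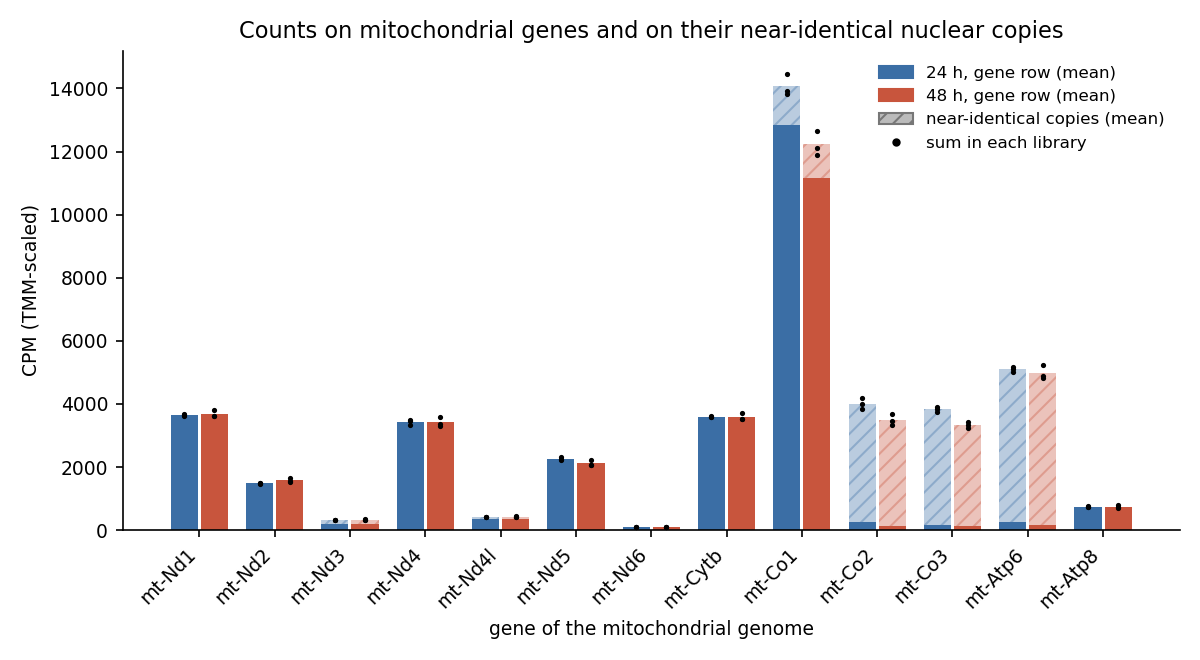
CPM of the 13 protein-coding mitochondrial genes, with the mean count on the gene's own row (solid) and on its near-identical nuclear copies (hatched) at 24 h (blue) and 48 h (red), and the sum in each library (dots). For mt-Co2, mt-Co3 and mt-Atp6 nearly all counts lie on the copies, and the sums of the 3 mt-Co genes are lower at 48 h.

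With the copies added and TMM scaling, the complex IV messages fell together and most others did not pass the test. Of the 13 genes, 4 fell (mt-Co1, mt-Co2, mt-Co3 and mt-Nd5), 1 rose (mt-Nd2) and 8 did not pass, where 31.9% of the 14871 genes of that fit fell. Across the alternative settings, log2 fold changes ran from -0.096 to -0.0084 for mt-Atp6 and from -0.080 to -0.0027 for mt-Nd4l, both summed. Each passed the test under some setting. Scaled by size alone, the log2 fold change of mt-Nd1, which has no counted copy, was -0.048 (adjusted p = 0.0159). The median log2 fold change of the 13 was -0.0049, beside -0.17 for the nuclear members. The difference between the genomes was not tested.

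The catalytic subunit gene mt-Co1 gave 14473, 13813 and 13925 CPM at 24 h and 11902, 12119.8 and 12666 CPM at 48 h. No 48 h library reached the lowest 24 h library, and the log2 fold change was -0.20 ± 0.02 (SE, adjusted p = 1.46e-07). For mt-Co2 the sums were 4189, 4004 and 3833 CPM at 24 h and 3317, 3469 and 3686 CPM at 48 h, a narrower gap (-0.20 ± 0.03 SE, adjusted p = 2.77e-05). For mt-Co3 they were 3901, 3753 and 3833 CPM at 24 h and 3244, 3327 and 3423 CPM at 48 h (-0.20 ± 0.02 SE, adjusted p = 5.72e-08). The 3 means were 12.9% to 13.1% lower at 48 h. Under 10 alternative settings each of the 3 kept its direction and its call, with log2 fold changes between -0.26 and -0.16.

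The 2 overlapping ATP synthase messages lie between mt-Co2 and mt-Co3 on the genome. As deposited, mt-Atp6, which encodes the proton channel, fell by 0.67 (adjusted p = 2.96e-08), with 94.4% to 97.0% of the summed counts on the copy Gm10925. Summed, it gave 5169, 5027 and 5115 CPM at 24 h and 4809, 4891 and 5242 CPM at 48 h, which overlapped. The log2 fold change was -0.04 ± 0.02 (SE, adjusted p = 0.199), but without the 48 h replicate 3, the highest library, it was -0.07 (adjusted p = 0.000469). The gene mt-Atp8 had no counted copy and gave -0.0049 ± 0.03 (SE, adjusted p = 0.884).

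In complex I, mt-Nd5, a proton-pumping membrane subunit, gave 2302, 2230.1 and 2265 CPM at 24 h and 2055, 2077 and 2213 CPM at 48 h. The groups did not overlap, and it fell by 0.10 (SE 0.02, adjusted p = 0.000935). Its end overlaps mt-Nd6 on the other strand. mt-Nd2 gave 1504, 1449.6 and 1494 CPM at 24 h and 1535, 1572 and 1659 CPM at 48 h, each 48 h value being higher. It rose by 0.10 (SE 0.02, adjusted p = 0.00113), but by 0.04 when libraries were scaled by size alone (adjusted p = 0.123). The other complex I messages, mt-Nd1, mt-Nd3, mt-Nd4, mt-Nd4l and mt-Nd6, had log2 fold changes between -0.02 and 0.04, with adjusted p-values from 0.118 to 0.943. mt-Cytb, the only complex III gene of this genome, gave 3625, 3572 and 3573 CPM at 24 h and 3521, 3534 and 3709 CPM at 48 h, which overlapped, with a log2 fold change of -0.00087 ± 0.02 (SE, adjusted p = 0.97).

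Shares within the mitochondrial messages do not depend on how libraries are scaled. The complex IV messages made up 51.3%, 50.9% and 50.5% of the counts of the 13 genes and their copies at 24 h and 47.5%, 47.8% and 47.5% at 48 h. These groups did not overlap, and the means were 50.9% ± 0.42 (SD, n = 3) and 47.6% ± 0.18 (SD, n = 3). The share of complex I went from 27.1% ± 0.27 to 29.1% ± 0.10, that of complex III from 8.35% ± 0.091 to 8.97% ± 0.082, and that of complex V from 13.6% ± 0.11 to 14.3% ± 0.15 (SD, n = 3), none of them overlapping. As the shares add up to the whole, a lower share of complex IV raises the others. In CPM, the sums of complexes I, III and V overlapped between the times, with means 0.12%, 0.062% and 2.15% lower at 48 h. The share of mt-Nd5 was 5.27% ± 0.029 at 24 h and 5.28% ± 0.032 at 48 h (SD, n = 3), which overlapped. With the copies, the 13 genes took a mean of 4.39% ± 0.085 of all counts after 24 h and 3.92% ± 0.13 after 48 h (SD, n = 3).

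Per kilobase of message, mt-Co1 was the most abundant at 24 h with 9107 CPM, followed by mt-Atp6 with 7495, mt-Co2 with 5861 and mt-Co3 with 4884. mt-Nd1 (3819), mt-Atp8 (3668), mt-Cytb (3138) and mt-Nd4 (2485) came next, then mt-Nd4l (1440.4), mt-Nd2 (1428), mt-Nd5 (1242), mt-Nd3 (932) and mt-Nd6 (184). For scale, the nuclear gene Atp5b had 864 CPM per kilobase.

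Beyond the subunits, genes that build, feed and regulate the chain moved in both directions. The counts below stand beside 31.9% lower and 30.9% higher among all genes. For complex I, 6 of 16 assembly genes fell and 2 rose (median -0.06), the largest changes being those of Tmem126b (0.45) and Ndufaf5 (-0.40), which modifies Ndufs7. For complex IV, 7 of 22 fell and 6 rose (median -0.01), close to the shares of all genes. There Cox17, a copper chaperone, fell by 0.38, and Sco2, which passes copper to the oxidase, rose by 0.49. The other assembly lists gave 1 higher and 1 lower of 4 for complex II, 1 higher and 0 lower of 6 for complex III, and 2 higher and 1 lower of 5 for ATP synthase, where the inhibitor gene Atpif1 rose by 0.25.

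**Figure D5:**
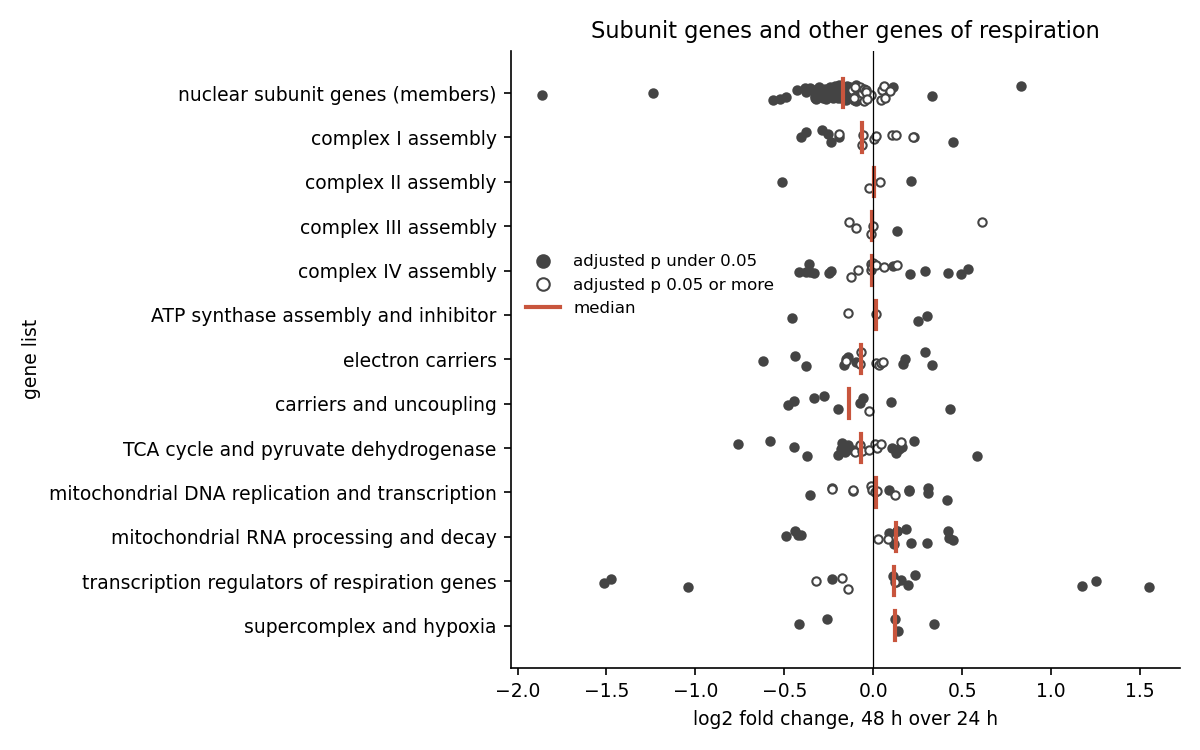
Log2 fold change (48 h over 24 h) of each tested gene in the nuclear subunit set and in 12 lists of related genes, with the median of each list as a red bar. Filled dots passed the test. The subunit genes lie mostly left of 0 with a median of -0.17, and the list medians lie between -0.14 and 0.13.

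Among electron carriers, 7 of 18 fell and 4 rose, where 31.9% and 30.9% of all genes did, and Cycs, the somatic cytochrome c gene, rose by 0.17 (adjusted p = 0.00134). Of the 10 tested genes for inner and outer membrane carriers, 7 fell and 2 rose, with Vdac1, the outer membrane channel, lower by 0.45 and the adenine nucleotide carrier Slc25a4 by 0.28. In the list for the citric acid cycle and pyruvate dehydrogenase, 10 of 24 fell and 6 rose. Pdha1, the pyruvate dehydrogenase alpha subunit, gave 239, 235 and 234 CPM at 24 h and 178, 169 and 173 CPM at 48 h, and fell by 0.44 (adjusted p = 5.68e-11). Pdk1, a kinase that inhibits that enzyme, gave 239, 239 and 225 CPM at 24 h and 349.5, 365 and 341 CPM at 48 h, and rose by 0.59 (adjusted p = 1.24e-11). The groups did not overlap for either gene.

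Of 16 genes that process or degrade mitochondrial RNA, 10 rose and 4 fell (median 0.13), where 30.9% and 31.9% of all genes did. Lrpprc, which stabilises mitochondrial messages, rose by 0.09 and Fastkd5, a processing factor needed for the mt-Co1 message, by 0.43. Ptcd1, a tRNA processing and rRNA factor, fell by 0.49. For mitochondrial DNA replication and transcription, 6 of 16 rose and 2 fell, with Tfam, the DNA packaging and transcription factor, higher by 0.09 and Polrmt, the RNA polymerase, lower by 0.23.

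Of the 16 tested regulators of respiration genes, 8 rose and 4 fell, where 30.9% and 31.9% of all genes did. Esrrb, a nuclear receptor that is also a naive marker, gave 557, 568 and 582 CPM at 24 h and 204, 204 and 206 CPM at 48 h, and fell by 1.47. Stat3, which transmits the LIF signal and is known to act on mitochondrial transcription, fell by 1.04 and Tfeb by 1.52, while Tfe3 rose by 1.25 and Lin28a by 1.55. The factors whose motifs were searched changed less. Nrf1 rose by 0.11, Yy1 by 0.16, Gabpb1 by 0.20 and Gabpb2 by 0.24, and Gabpa fell by 0.23. Ppargc1a, the coactivator known for driving mitochondrial biogenesis in muscle and brown fat, had too few counts to be tested. Of the 5 tested genes for supercomplexes and the hypoxia response, 3 rose and 2 fell, with Hif1a, the hypoxia factor, higher by 0.34 and Higd2a, a supercomplex assembly factor, lower by 0.42.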

How the data were processed

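Messenger RNA libraries of 6 samples (KAPA mRNA HyperPrep kit, per the labels) were compared. The authors deposited RSEM expected counts per gene, not scaled for depth or length. The submitters' processing notes name cutadapt 1.9.1, STAR 2.5.2, RSEM 1.3.0 and GRCm38. The annotation and the use of strand are not given in the sources used here. Symbols, positions and transcripts came from GENCODE M21, which matched 51633 of 51912 identifiers. Every column matched 1 sample title.

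Expected counts were rounded, filtered with filterByExpr (minimum count 10), scaled by TMM and tested on the whole table with edgeR 4.0.16 (quasi-likelihood test, time group only, two-sided, R 4.3.3). P-values were adjusted by Benjamini-Hochberg over all genes tested. SE is the log2 fold change divided by the square root of F. Near-identical copies were found with blastn 2.17.0 (at least 95% identity over 100 bases and 30% of a transcript), and members summed with them were fitted again. Ndufa4 and Ndufa4l2 were counted in complex IV.

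All mitochondrial members and the 3 largest called rises and falls of each complex (mean of at least 5 CPM, no overlap) could be named. So could the families Cox4i, Cox6a, Cox6b, Cox7a, Cox8, Atp5g, Sdh and Ndufa4, the member of each complex with the most counts, and listed genes. Values of the members Cox7b, Cox7b2, Cox7c, Cyc1, Uqcrfs1, Atp5s, Ndufv1 and Ndufv2 were given outside these rules. Cox7b2 lay below 5 CPM at both times. The members and lists were chosen with earlier results of these data known. On simulated counts for 14609 genes, the test recovered 44.9% of genes changed by 0.25 on the log2 scale and 63.0% of those changed by 0.5. There were 4 false calls among 148. The simulation changed few genes, whereas 9345 were called in the data, so its adjusted threshold was stricter. Its shares therefore do not give the sensitivity of the test for the members. Alternatives were other scalings, filters and tests (DESeq2 1.42.0, limma voom 3.58.1), unrounded counts, a replicate block, a threshold of 0.01 and leaving out each library. The values of 1 complex I gene are not reported here.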

Additional observations from a re-analysis of the deposited data

How the results depend on the processing

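Of 896 values of 51 single-gene results under the alternatives, 831 kept their direction and side of the threshold, 22 lost the call, 11 gained it and 32 changed sign. With library size as the only scaling, 1 nuclear member was higher and 38.2% of all genes were lower, the nuclear median was -0.23, and 9 mitochondrial genes were lower and 0 higher. At an adjusted p under 0.01, 1 nuclear member was higher. With every gene that had a count, 2 mitochondrial genes were higher. Leaving out each library gave 53 to 58 lower nuclear members, a nuclear median from -0.18 to -0.16, 4 to 6 lower mitochondrial genes and a mitochondrial median from -0.088 to 0.015, the lowest without the 48 h replicate 3. Apart from the range in the next sentence, these and the other member counts of this paragraph use the rows as deposited, not the sums with copies. Over 19 alternatives, the sums with copies included, 52 to 70 nuclear members were lower. Correlations of deviations between samples with the same replicate number ran from -0.05 to -0.01. These values show no pairing by replicate number but cannot exclude it, since deviations of single genes also hold counting noise. With a replicate block 9235 genes, 58 nuclear members lower and 3 higher, and 5 mitochondrial genes lower and 1 higher were called.

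With copies, the difference in the mitochondrial share of counts was -0.47 percentage points in place of -0.31, and summed log2 ratios were -0.031 for mitochondrial complex V, -0.24 for nuclear complex IV and -0.15 for nuclear complex V. Without members with fractional counts they were -0.0019 for all mitochondrial genes, -0.0050 for mitochondrial complex V, -0.17 for nuclear complex III and -0.29 for nuclear complex IV.

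Signs changed for genes near 0 and for rows whose counts are divided with copies. Log2 fold changes were 0.0053 for mt-Nd4 and 0.0066 for mt-Cytb under RLE and DESeq2, 0.0020 and 0.0033 under TMM without members, and 0.0025 for mt-Atp8 under RLE and DESeq2. With library size only they were -0.048 for mt-Nd1, -0.038 for mt-Nd6 and -0.023 for mt-Nd3 summed with copies. Leaving out each library, they ran from -0.035 to 0.023 for mt-Nd4, -0.011 to 0.028 for mt-Nd1, -0.019 to 0.076 for mt-Nd6, -0.088 to 0.26 for mt-Nd3, -0.024 to 0.015 for mt-Cytb, -0.042 to 0.032 for mt-Atp8, -0.32 to 0.19 for mt-Co3 as deposited and -0.17 to 0.0050 for Atp5g2, which was 0.10 with its copy. Summed with copies, leaving out each library gave 0.023 to 0.049 for mt-Nd3, -0.22 to -0.18 for mt-Co3 and 0.085 to 0.13 for Atp5g2. The cause of these sign changes was not tested. Depth limits the isoform genes: Cox4i2, Cox6a2, Cox8b and Cox8c had too few counts for a test.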

Other observations

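The ribosomal RNA rows of the mitochondrial genome, which are not members, moved the other way from the mt-Co messages in libraries made with a kit for messenger RNA. mt-Rnr1 gave 213, 207 and 221 CPM at 24 h and 256, 263 and 281 CPM at 48 h, and rose by 0.32 on the log2 scale (SE 0.03, adjusted p = 1.85e-07). mt-Rnr2 gave 1184, 1104 and 1195 CPM at 24 h and 1305, 1307 and 1369 CPM at 48 h, and rose by 0.19 (SE 0.03, adjusted p = 4.50e-06). The groups did not overlap for either gene, and none of the 22 mitochondrial tRNA rows had more than 3 counts in a library.

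Ndufb1-ps, left out of the members by its name, held counts like those of a subunit gene. Its mean was 21.1 CPM at 24 h and 21.9 CPM at 48 h, and the log2 fold change was 0.05 (adjusted p = 0.49).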
